A study of Arabidopsis thaliana with 2 samples.

Results

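The J-domain proteins, also called DnaJ or HSP40 proteins, are the co-chaperones of HSP70, and their genes were followed here in leaf mesophyll cells of Arabidopsis thaliana after hypoxia and in control cells. A list of 57 loci was set up by gene family, with earlier results of these data known. Below, the family means the genes of this list, and its shares need not hold for J-domain genes outside it. A locus was analysed when the array annotation paired a probe set with that gene alone, and 32 of the 57 had such a probe set. Of these 32, 27 were measured, meaning that they lay above a floor of 165.7 in scaled intensity on at least 1 array. Over the whole array 7971 of 13355 genes were measured by the same criterion.

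The hypoxia sample was mesophyll protoplasts, leaf cells freed from their walls, that stood for 6 h at a depth of 25 mm in 2 ml of mannitol buffer in a tube of 15 ml. The control sample was protoplasts that stood for 6 h in a Petri dish, where 10 ml of that buffer made a layer 0.6 mm deep. Both samples came from one pool of cells made from the fifth and the sixth leaves of 36 plants, held equal numbers of cells, and were kept in light of 80 microeinstein. The labels name no genotype, accession, transgene or plant age for either sample. There was 1 array per group, so every difference below has no replicate check and no test, and the number of arrays limits the precision. Low oxygen, the vessel and the higher density of cells in the tube cannot be told apart.

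A J-protein binds HSP70 through its J-domain, which carries a conserved histidine-proline-aspartate motif, and speeds the hydrolysis of ATP by HSP70, so that HSP70 closes on its client protein. Type I J-proteins also have a glycine- and phenylalanine-rich stretch and a zinc-binding domain, type II proteins have the glycine-rich stretch without the zinc-binding domain, and type III proteins share only the J-domain. Cytosol, endoplasmic reticulum (ER), mitochondria and plastids each have their own J-proteins and their own HSP70. Types and compartments were assigned from background knowledge of each gene, not from the arrays.

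The measured J-domain genes spread widely around the centre of the array. At least 2-fold higher in hypoxia were 8 of the 27, against a background of 13.0% over all measured genes. Lower by as much were 3 of the 27, against a background of 14.5%. As shares of the 27 measured listed genes these are 29.6% and 11.1%. At least 4-fold higher were 3 of the 27, against 2.80% of all measured genes, and none of the 27 was at least 4-fold lower in these 2 arrays. The median log2 ratio of hypoxia over control was -0.0055 for the family and -0.07 for all measured genes. The middle of the family, from the lower to the upper quartile, ran from -0.53 to 1.25, and that of all measured genes from -0.66 to 0.51. The family thus had its centre near that of the array and a longer upper arm. Each of the 32 genes was read by 1 probe set, and the ID of each ended in the plain suffix that marks a probe set designed to be specific. Binding of these probes to the transcripts of related family members was not tested.

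**Figure D1:**
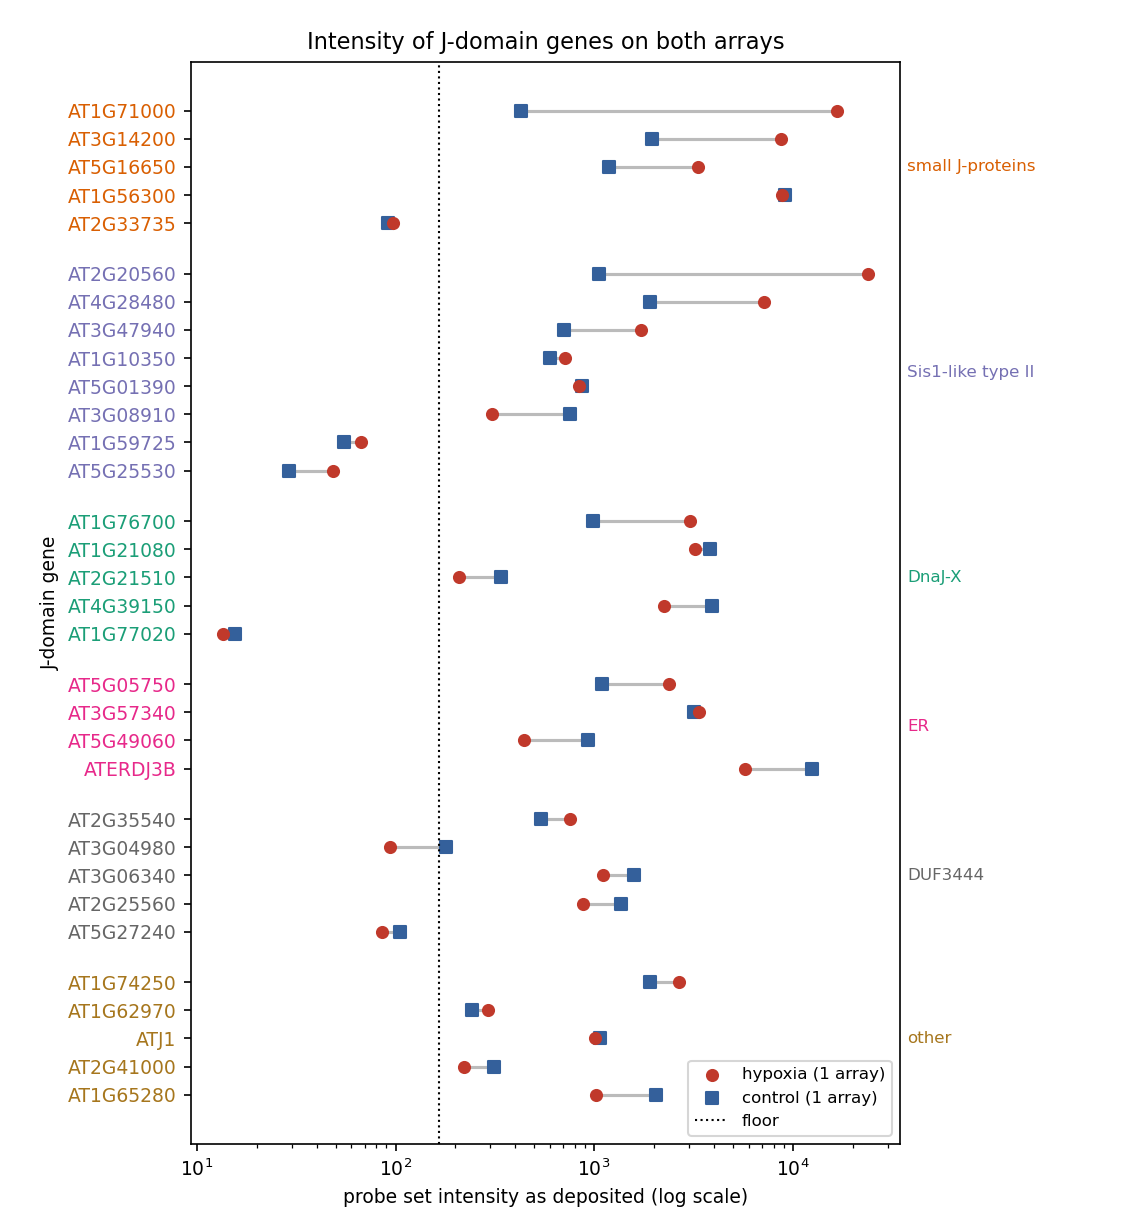
Deposited intensity of the 32 J-domain genes with a probe set of their own on the hypoxia array (red circles) and on the control array (blue squares), on a log axis, grouped by kind. The dotted line is the floor of 165.7, which was applied to scaled values. The longest red arms to the right belong to AT1G71000, at 16638.5 in hypoxia and 426.4 in control, and to AT2G20560, at 23868.7 in hypoxia and 1052.6 in control.

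Small type III proteins, which hold little besides the J-domain, included the highest ratio of the measured family. AT1G71000 had an intensity of 16638.5 in hypoxia and 426.4 in control, a log2 ratio of 5.33, or 40.3-fold. It stood at rank 6 among the ratios of the 7971 measured genes, bounds included. AT3G14200 had 8764.4 in hypoxia and 1966.3 in control, a log2 ratio of 2.20, or 4.60-fold. AT5G16650 had 3323.5 in hypoxia and 1190.3 in control, a log2 ratio of 1.53, or 2.88-fold. These 3 of the 4 measured genes of this kind were at least 2-fold higher, against 13.0% of all measured genes. The remaining measured gene of this kind, AT1G56300, had 8834 in hypoxia and 9183 in control, a log2 ratio of -0.01, and so lay at the centre of the array with a strong signal in both samples. AT2G33735 was below the floor in both samples, at 97.3 in hypoxia and 91.6 in control, and has no fold. The median log2 ratio over the 4 measured small J-proteins was 1.87.

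The type II proteins of the cytosol, which resemble yeast Sis1, differed from one another nearly as widely as the whole family did. Of 8 listed genes, 6 were measured. In hypoxia 3 were higher by 2-fold or more and 1 was lower by as much, while 2 lay within 2-fold. The backgrounds over all measured genes were 13.0% higher and 14.5% lower. AT2G20560 had an intensity of 23868.7 in hypoxia and 1052.6 in control, a log2 ratio of 4.55, or 23.4-fold, at rank 11 of all measured genes. AT4G28480 had 7193.5 in hypoxia and 1915.4 in control, a log2 ratio of 1.96, or 3.88-fold. AT3G47940 had 1716.2 in hypoxia and 703.6 in control, a log2 ratio of 1.33, or 2.52-fold. These 3 made up the high end of the group, and the first of them stood far above the other two.

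Near the centre of the array were a pair of Sis1-like genes. AT1G10350 had 710 in hypoxia and 601.6 in control, a log2 ratio of 0.29. AT5G01390 had 840.5 in hypoxia and 871.5 in control, a log2 ratio of -0.01. In the other direction, AT3G08910 had 305.1 in hypoxia and 754.2 in control, a log2 ratio of -1.26, or 2.39-fold lower, the lowest ratio as reported among the 27 measured J-domain genes. Its hypoxia signal was not far above the floor, and a floor at the 60th percentile gave a ratio of -0.14. There and with loess, at -1.07, it lay above ERDJ3B, at -1.08 and -1.11. AT1G59725, at 66.9 in hypoxia and 54.8 in control, and AT5G25530, at 48.5 in hypoxia and 29.2 in control, were below the floor in both samples. The 6 measured Sis1-like genes spanned 5.81 on the log2 scale, and their median ratio was 0.81. That median was 0.31 with hybridisation control centring, and also 0.31 under a floor at the 20th percentile, where 8 genes were measured.

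**Figure D2:**
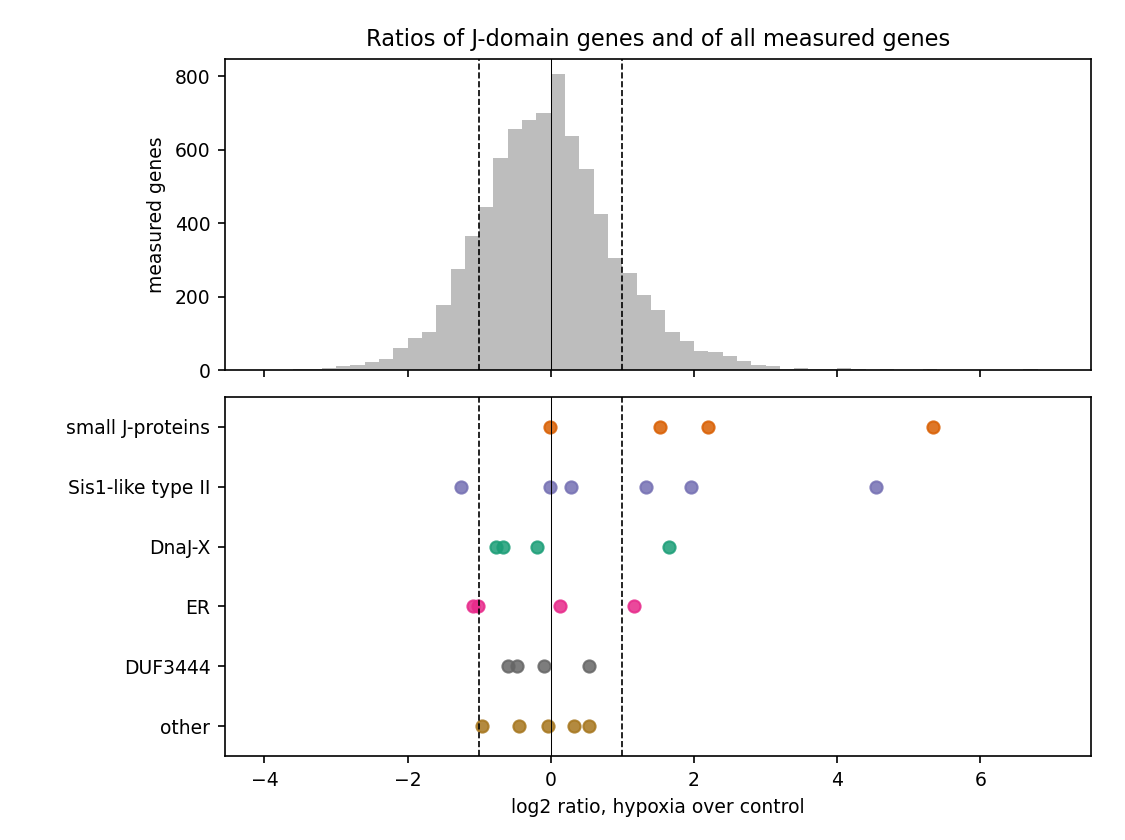
Log2 ratio of hypoxia over control for all 7971 measured genes (upper panel, number of genes in bins) and for each of the 27 measured J-domain genes by kind (lower panel, 1 point per gene). Dashed lines mark 2-fold in either direction. The right-hand points are small J-proteins and Sis1-like proteins, up to 5.33 and 4.55, and the DUF3444 genes lie within 2-fold, except AT2G25560 with hybridisation control centring, at -1.10.

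The J-proteins of the ER lay on both sides of 0. ERDJ3B, listed as ATERDJ3B, is a type II protein of the ER lumen that works with the HSP70 protein BiP in the folding of secreted and membrane proteins. Its intensity was 5735.9 in hypoxia and 12567.5 in control, a log2 ratio of -1.08, or 2.12-fold lower. Of the J-proteins with a DUF1977 domain, which are related to the DNAJB12 proteins of the mammalian ER membrane, AT5G05750 had 2378.4 in hypoxia and 1099.4 in control, a log2 ratio of 1.16, or 2.24-fold. AT3G57340 had 3389.2 in hypoxia and 3185.7 in control, a log2 ratio of 0.14. AT5G49060 had 442.4 in hypoxia and 927.7 in control, a log2 ratio of -1.02, or 2.03-fold lower. Of the 4 measured ER genes, 1 was thus higher by 2-fold or more, 2 were lower by as much and 1 lay between. Over all measured genes 13.0% were as high and 14.5% as low. The median log2 ratio of the 4 ER genes was -0.44. Both lower genes were close to the 2-fold line. AT5G49060 came within 2-fold under 5 of 10 alternatives in processing and ERDJ3B under 1 of 10.

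Among the proteins with a DnaJ-X domain, a group related to yeast Caj1 and Djp1, 1 of 4 measured genes was at least 2-fold higher. The background over all measured genes was 13.0%. AT1G76700 had 3021.9 in hypoxia and 991.3 in control, a log2 ratio of 1.65, or 3.15-fold. AT1G21080 had 3231.7 in hypoxia and 3831.1 in control, a log2 ratio of -0.20. AT4G39150 had 2238.9 in hypoxia and 3942.4 in control, a log2 ratio of -0.77. AT2G21510 had 208.1 in hypoxia and 340.1 in control, a log2 ratio of -0.66. These 3 genes were lower in hypoxia by less than 2-fold, though AT4G39150 and AT2G21510 passed 2-fold with hybridisation control centring, at -1.27 and -1.16. The group's median ratio was -0.43. AT1G77020 was below the floor in both samples, at 13.6 in hypoxia and 15.6 in control.

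The large J-proteins with a DUF3444 domain, whose function is little known, held no gene past 2-fold among the 4 measured, except AT2G25560 with hybridisation control centring, at -1.10. Of all measured genes only 27.5% were past 2-fold in either direction as reported. AT3G06340 had 1107.1 in hypoxia and 1584.2 in control, a log2 ratio of -0.47. AT2G25560 had 876.6 in hypoxia and 1369.6 in control, a log2 ratio of -0.60. AT2G35540 had 755.1 in hypoxia and 539.2 in control, a log2 ratio of 0.53. AT3G04980 was at the floor in hypoxia, with 93.5 there and 180.3 in control, so that it was at least 1.07-fold lower. That bound depended on the floor, since the log2 ratio was -0.90 under a floor at the 20th percentile, and -0.80 when 16 was added and no floor was set. The median ratio of the group was -0.28, and -0.53 with 16 added. AT5G27240 was below the floor in both samples, at 85.6 in hypoxia and 105.5 in control. AT2G05230 and AT2G05250 share a probe set, which read 1363.1 in hypoxia and 2134 in control, a log2 ratio of -0.60, and cannot be given to either gene.

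The last 5 measured genes were all within 2-fold as reported, and only 27.5% of all measured genes were past it. ATJ1, also known as AtDjB1, is a J-protein of the mitochondrion. It was the only listed member of that compartment that the annotation paired with a probe set of its own. It had 1014.5 in hypoxia and 1076.3 in control, a log2 ratio of -0.04. AT1G74250, the counterpart of yeast Jjj1, a J-protein that acts in the maturation of the large ribosomal subunit, had 2681.9 in hypoxia and 1913.7 in control, a log2 ratio of 0.53. AT1G65280 had 1022.6 in hypoxia and 2049.9 in control, a log2 ratio of -0.96, just inside the 2-fold line, which it passed with deposited values and with hybridisation control centring. AT2G41000 and AT1G62970 were dim on both arrays, with log2 ratios of -0.45 and 0.32. AT2G41000 had 221.2 in hypoxia and 311.8 in control. AT1G62970 had 292.9 in hypoxia and 242.4 in control.

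By compartment, the 10 measured genes assigned to the cytosol and nucleus had a median log2 ratio of 0.93, of which 5 were at least 2-fold higher and 1 was lower by as much, against backgrounds of 13.0% and 14.5% over all measured genes. They held all 3 genes at least 4-fold higher, AT1G71000, AT2G20560 and AT3G14200. The 4 ER genes had a median of -0.44. The 12 measured genes without an assigned compartment had a median of -0.32, of which 2 were higher by 2-fold or more and 0 were lower by as much. By type, the median was 0.29 for 7 type II genes and -0.01 for 19 type III genes, so the types differed less than the genes within each. Type II ratios ran from -1.26 to 4.55 and type III ratios from -1.02 to 5.33. None of these differences between groups of genes was tested. The cytosolic median was 0.43 when the floor was lowered to the 20th percentile, which added 2 dim genes, and also 0.43 with hybridisation control centring.

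The annotation paired 8730 probe sets with no gene, so a gene without a paired probe set may still have one on the array. Of the 57 listed genes, 25 had no probe set that the annotation paired with them alone, and were not analysed here. They include all 14 listed plastid J-proteins and all 7 listed type I proteins, among them the cytosolic J2 and J3, the mitochondrial GFA2 and the plastid DnaJ proteins closest to the bacterial one. The ER lumen proteins P58IPK and ERDJ3A and the 3 genes of the ARG1 family were also without one. Apart from the mitochondrial ATJ1, whose type was not assigned, the counts above therefore describe type II and type III genes of the cytosol, ER and unassigned compartments. They say nothing about plastid or type I J-proteins, or about J-domain genes outside the list.

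**Figure D3:**
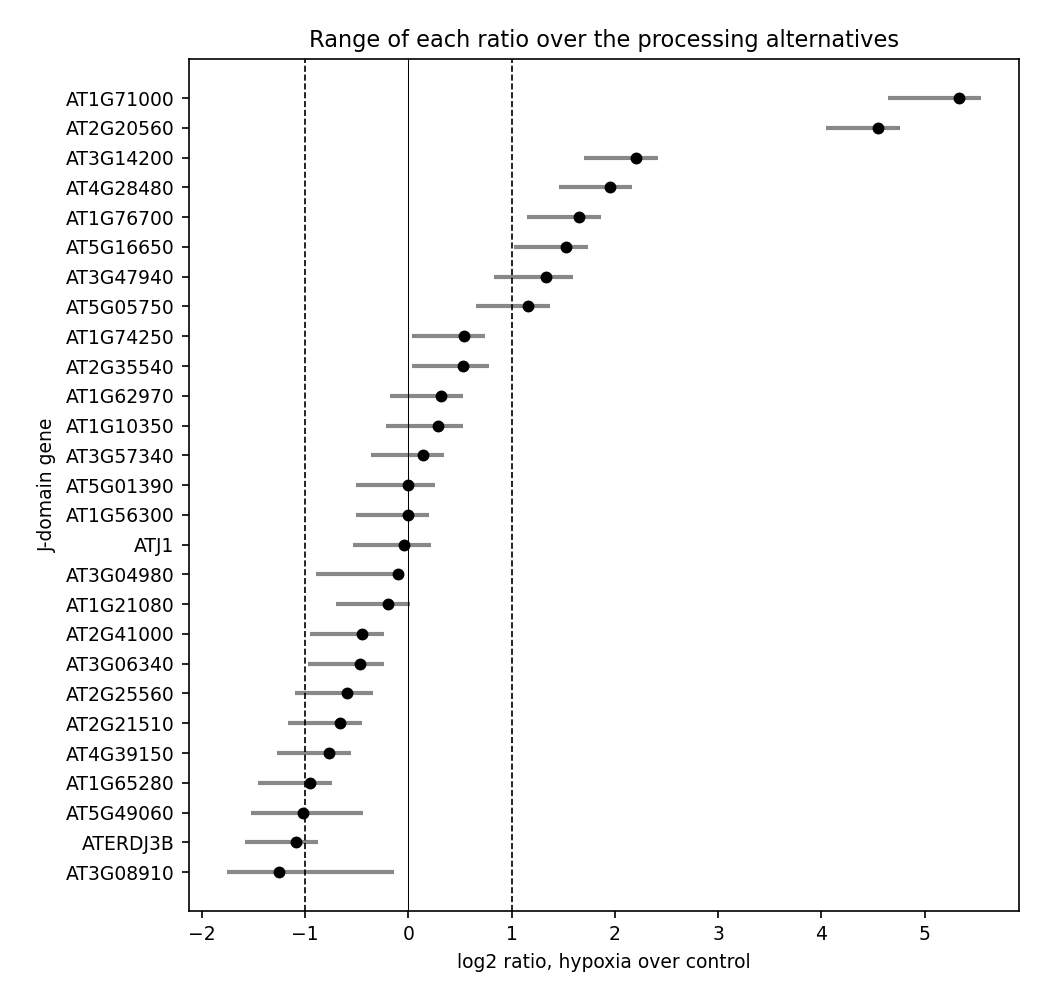
Log2 ratio of hypoxia over control for the 27 measured J-domain genes, ordered by value. Black points are the ratios as reported and grey bars run from the lowest to the highest value over up to 10 alternatives in scaling, floor and probe set choice. Dashed lines mark 2-fold, and the bars of AT1G71000 and AT2G20560 stay above 4.0.

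How far each ratio depended on the scaling of the 2 arrays was read from the range over the alternatives. Of the 11 genes past 2-fold, 6 stayed past it under every alternative run, AT1G71000, AT2G20560, AT3G14200, AT4G28480, AT1G76700 and AT5G16650. AT1G71000 ranged from 4.65 to 5.54 and AT2G20560 from 4.05 to 4.76. AT3G47940 and AT5G05750 came within 2-fold with hybridisation control centring, at 0.83 and 0.66. Of the 27 genes, 20 kept the sign of their ratio under every alternative, and the other 7 had ratios as reported between -0.20 and 0.32. Reference gene centring moved the median of all measured genes to 0.11 and hybridisation control centring moved it to -0.55, so directions of small size hold only relative to the rest of the array. Of the family's genes past 2-fold, 72.7% were higher as reported, 88.9% with reference gene centring and 46.2% with hybridisation control centring. Over all measured genes these shares were 47.3%, 62.7% and 17.7%. The shares lay closer under a floor at the 20th percentile, at 72.7% for the family and 61.8% for all measured genes.

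The HSP70 proteins and the other co-factors of their cycle were measured for 11 of 52 listed genes, of which 4 were higher by 2-fold or more and 1 was lower by as much, against the same backgrounds of 13.0% and 14.5%. Of the 14 listed HSP70 genes, the 2 that were measured lay within 2-fold as reported. AT3G09440, a cytosolic HSP70, had an intensity of 76042.3 in hypoxia and 44519.9 in control, a log2 ratio of 0.82, and 1.03 with reference gene centring. That ratio was 0.39 with quantile normalization, 0.45 with loess and 0.32 with hybridisation control centring. Hsp70-2 had 6836.6 in hypoxia and 5813.1 in control, a log2 ratio of 0.28. The other 12 listed HSP70 genes, among them BiP, the organellar forms, HSC70-1 and Hsp70b, were not analysed here. The HSP70 partners of the ER and mitochondrial J-proteins were thus not read, and those of the cytosolic J-proteins only in part.

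Nucleotide exchange factors release ADP from HSP70 and so open it again after the J-protein has acted. Fes1A, a cytosolic factor, had 57436.6 in hypoxia and 9133.6 in control, a log2 ratio of 2.70, or 6.50-fold. Fes1B had 854.8 in hypoxia and 339.3 in control, a log2 ratio of 1.38, and Fes1C had 466.1 in hypoxia and 485.1 in control, a log2 ratio of -0.01. The members of the Fes1 family thus differed from one another, as the Sis1-like genes did. The GrpE-type factor AT1G36390 had 423.7 in hypoxia and 1004.4 in control, a log2 ratio of -1.20. The HSP110-type genes AT4G16660 and AT1G11660 were within 2-fold, at log2 ratios of -0.88 and -0.18, though the first was at -1.38 with hybridisation control centring.

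Hop proteins bridge HSP70 and HSP90. Hop3 had 23324.2 in hypoxia and 1154.3 in control, a log2 ratio of 4.38, close to that of AT2G20560. Hop2 had 17352.6 in hypoxia and 8081 in control, a log2 ratio of 1.15. Hop1 had 930.3 in hypoxia and 1825.5 in control, a log2 ratio of -0.93, and -1.43 with hybridisation control centring. Fes1A and Hop3 thus had the highest ratios of their families by a wide margin. Hop2 came within 2-fold with hybridisation control centring, and Fes1B there and under the floor set at the 60th percentile. AT1G36390 came within 2-fold under that floor, with loess and with reference gene centring. In the BAG and heat shock factor lists, with 7 and 13 genes, the annotation paired 0 genes with a probe set of their own.

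**Figure D4:**
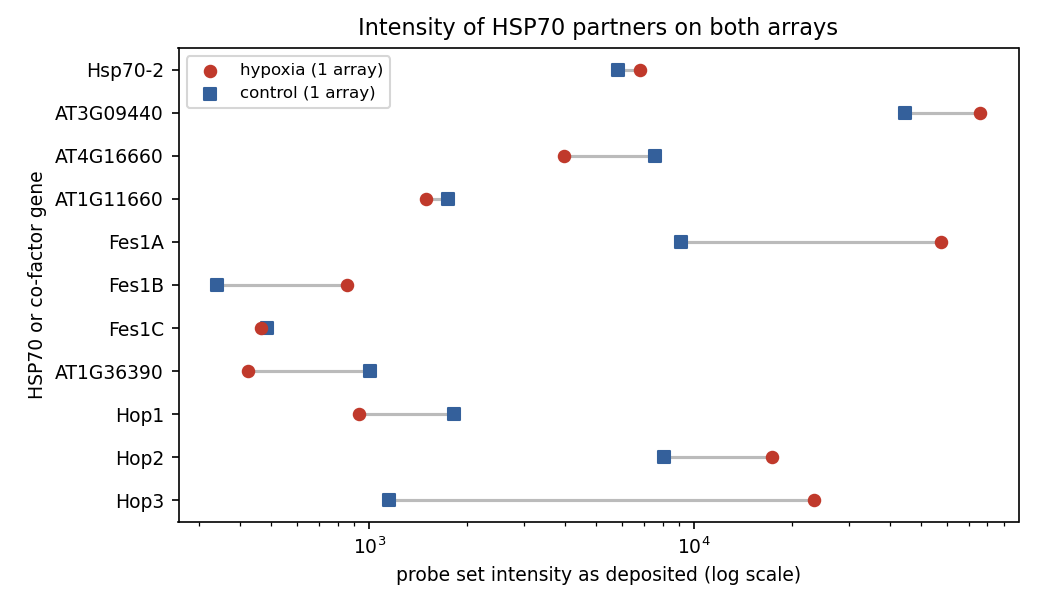
Deposited intensity of the 11 measured HSP70 genes and co-factor genes on the hypoxia array (red circles) and the control array (blue squares), on a log axis. Hop3, at 23324.2 in hypoxia and 1154.3 in control, and Fes1A, at 57436.6 in hypoxia and 9133.6 in control, have the widest gaps. Of the 2 HSP70 genes, Hsp70-2 has a narrow gap, with a log2 ratio of 0.28, and AT3G09440 a wider one, at 0.82.

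The median intensity over all probe sets other than controls was 334.2 in hypoxia and 345.2 in control, and 62.2% and 57.8% of them lay above the floor. Where a gene had 2 probe sets and both passed the floor in each sample, as in 74 genes, their log2 ratios differed with an SD of 0.344 per probe set, which covers probe differences and not the spread between samples. Mesophyll photosynthesis genes were measured for 5 of 7 listed, with a summed intensity of 133282 in hypoxia and 72872.8 in control and a median log2 ratio of 1.04. Guard cell markers were measured for 2 of 3, with a summed intensity of 503.2 in hypoxia and 327.7 in control and a median log2 ratio of 0.15. One of them, AT1G22690, was below the floor in control, at 175.4 in hypoxia and 32.9 in control. The other, FMA, had 327.8 in hypoxia and 294.8 in control. Of the phloem markers 1 of 3 was measured, SWEET11, at 1020.2 in hypoxia and 212.4 in control, a log2 ratio of 2.31. The annotation paired no epidermis marker with a probe set of its own. The part of these shifts in the J-domain results was not tested, and fewer cells of a kind and less RNA per cell cannot be told apart in such samples.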

How the data were processed

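RNA of 1 hypoxia and 1 control sample was, per the labels' protocols, labelled with biotin and hybridised to Affymetrix arrays. The authors deposited 1 linear intensity per probe set and array. GCOS 1.0 is named per the submitters' processing notes, while its settings and the genome build are not given in the sources used here. The deposited intensities, without the lowest and highest 2%, had a mean of 1500.1 on both arrays, so each array had been scaled as a whole.

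Of 22810 probe sets, 64 controls were left out. An older platform annotation paired 13513 of the rest with 1 gene, 503 with several and 8730 with none. Of the 13513, 13436 matched a locus in a RefSeq table of TAIR10.1 through Entrez identifiers. Where a gene had more than 1 probe set, that of the highest mean log2 intensity stood for it. Both arrays were brought to a common median, values under the 40th percentile were set to it, and the log2 ratio was taken (Python 3.11.15, pandas 2.3.3), with the steps tested on simulated data. Every measured member and partner gene was named. Members, lists and rules were chosen with earlier results of these data known.

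Alternatives were deposited values, quantile normalization, loess (statsmodels 0.14.6), centring on 5 reference genes or 18 hybridisation control probe sets, floors at the 20th and 60th percentiles, 16 added in place of a floor, the mean over probe sets, and probe sets without a suffix for shared targets. Protein features and promoter motifs, though planned, were not analysed here.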

Additional observations from a re-analysis of the deposited data

How the results depend on the processing

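The count of J-domain genes at least 2-fold higher in hypoxia was 8 under 9 of 10 alternatives and 6 with hybridisation control centring, where 6.67% of all measured genes were as high. Under a floor at the 20th percentile, 8 of 31 measured members were as high, against 20.2% of all measured genes. With 16 added, 8 of 27 were, against 18.1%. Under the other alternatives with a count of 8, the share of all measured genes ran from 12.1% to 16.5%. The count at least 2-fold lower, 3 as reported, was 1 with reference gene centring, 7 with hybridisation control centring and 1 under a floor at the 60th percentile, where 9.82%, 31.0% and 13.1% of all measured genes were as low. With deposited values it was 4, against 15.6%. With quantile normalization, with loess and with 16 added it was 2, against 13.9%, 11.5% and 15.3%. Hybridisation control centring lowers the log2 ratio of a gene above the floor in both samples by 0.50, and the median was then -0.40 for the family, -0.22 for type II, -0.40 for type III, -0.94 for the ER and 0.43 for the cytosol and nucleus. The cytosolic median was also 0.43 under a floor at the 20th percentile, where 12 genes were measured. Over single members, 251 of 265 values under the alternatives lay on the same side of 2-fold as reported, and 0 members past 2-fold changed sign. The mean over probe sets could not change a member's ratio, since each member had 1 probe set. The suffix rule could not either, since the probe set ID of each member ended in the plain suffix. The 265 values include those of both alternatives. No paired analysis was possible because each group has 1 array. Signal over background limits the dim genes, since no detection calls were used.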
